A study of Canis lupus familiaris with 36 samples.

Results

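The gene described here is IRF5, interferon regulatory factor 5, followed in CLBL-1, a B-cell lymphoma line of the dog, over all treatments and incubation times. It was 1 row of the 30424 rows of the count table, the row with the Ensembl identifier ENSCAFG00000001611, and it was found through the study's pairing of identifiers with symbols. That pairing was read here only in part, from shortened copies of the tables that hold it, and this part covered 1068 rows. RNA came from cells given Ibrutinib (Ibr) at 1 μM, AS-605240 (AS) at 5 μM, both at these concentrations (Ibr + AS) or only the solvent dimethyl sulfoxide (DMSO). Each incubation lasted 24, 48 or 72 h and was made in cells of 3 passages of the line, numbered here as replicates 1, 2 and 3 from the earliest to the latest. This gave 36 libraries in 12 groups of 3. All groups were exposed to DMSO, since both inhibitors were dissolved in it, and DMSO-only cells received the concentration of the combined treatment. All cells belonged to 1 line, so the spread between replicates is that between passages and not between dogs. The study asked how cells respond when BTK, the kinase blocked by Ibr, and the gamma isoform of PI3K, blocked by AS, are inhibited alone or together.

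IRF5 is a transcription factor of the interferon regulatory factor family. In immune cells, Toll-like receptors signal through the adaptor MYD88, kinases of the IRAK family and the ubiquitin ligase TRAF6 to IRF5, which is phosphorylated, enters the nucleus and activates genes of type I interferons and of inflammatory cytokines such as IL6, TNF and the IL12 family. B cells, dendritic cells and macrophages are known to express it, and in B cells it is known for a part in antibody production. The libraries measured IRF5 mRNA, not the amount, phosphorylation or location of the protein. The RefSeq annotation of the dog lists 5 transcripts of IRF5, which counts per gene do not separate.

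Between 9941919 and 14703839 reads per library lay on genes. IRF5 took between 1204 and 3640 reads, so counting error was small: the library with 1204 reads had an IRF5 level of 112 CPM, a unit that scales reads to the size of the library, with an exact 95% Poisson interval of 106 to 119 that covers counting error only. The fits left out replicate 3 of Ibr at 72 h, which the study had discarded. Its IRF5 level was 107 CPM, and 2 libraries remained in this group. Of the B-cell markers, 3 of 8 could be paired, and all were present in every library: TNFRSF13C, the receptor of the survival factor BAFF, with at least 866 reads, DLA-DRA, a class II antigen presentation gene, with at least 23095, and TCF4, a transcription factor of B-cell development, with at least 629. MS4A1, CD79A, CD79B and PAX5 were not analysed here. Markers of T or NK cells (4 of 5 paired) had between 0 and 7 reads. Of the markers of other tissues, SOX10, MLANA and PLG had between 0 and 3 reads, and the epithelial splicing factor ESRP1 had between 147 and 279.

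In cells treated with Ibr + AS, IRF5 was higher than in cells with DMSO at each incubation time. Under Ibr + AS the level was 295 ± 15.7 CPM (SD, n = 3) at 24 h, 262 ± 8.18 CPM at 48 h and 196 ± 24.8 CPM at 72 h, against 112 ± 2.20, 113 ± 2.54 and 125 ± 11.02 CPM in DMSO. All 9 Ibr + AS libraries, between 172 and 313 CPM, lay above all 27 other libraries, between 107 and 155 CPM. Because RNA was taken from whole cultures, a change in the number of cells of a type and a change of RNA per cell cannot be told apart.

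**Figure D1:**
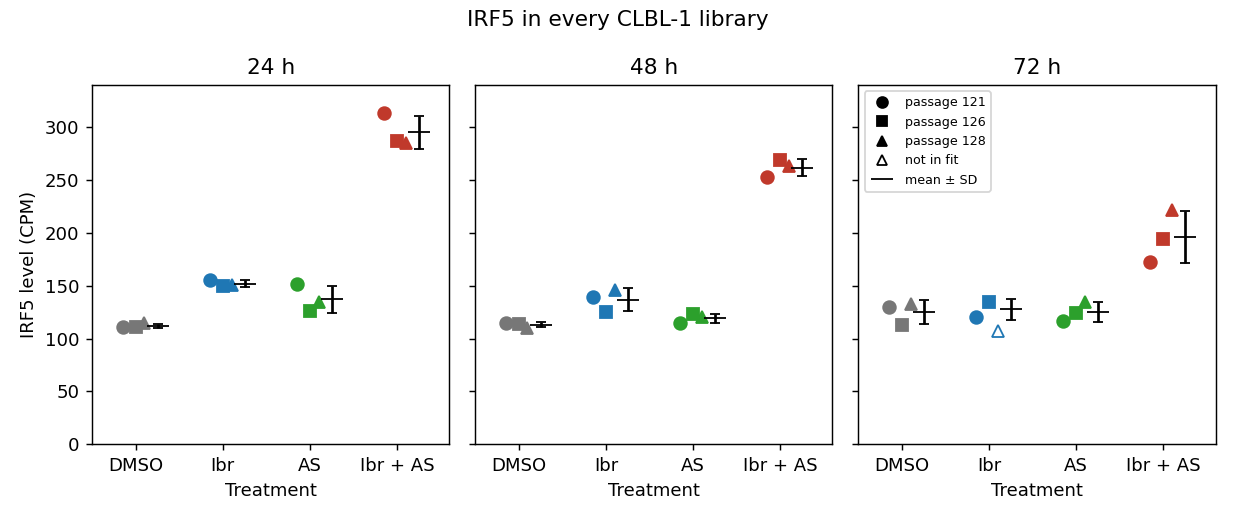
IRF5 level in CPM (linear axis from 0) in each library by treatment, with 1 panel per incubation time; symbols mark the passage (replicates 1 to 3 in the order of the key), the open triangle is the Ibr library at 72 h that was not in the fits, and black marks are the mean ± SD of the fitted libraries. All 9 Ibr + AS libraries lie above the other 27, and their level is lowest at 72 h.

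At 24 h, the DMSO libraries of replicates 1, 2 and 3 had 111, 111 and 114 CPM of IRF5, and those of Ibr + AS had 313, 287 and 285 CPM. The groups were far apart, and the 3 DMSO values were nearly equal. The log2 fold change (log2 FC) was 1.38 with a standard error (SE) of 0.09, or 2.61-fold, and the adjusted p-value was 1.15e-26 (quasi-likelihood test of edgeR, adjusted after Benjamini and Hochberg over 18670 genes, as for all adjusted p-values here). IRF5 was thus a differentially expressed gene (DEG), for which the adjusted p-value must not exceed 0.05 and the log2 FC must lie above 1 or below −1. In this comparison, 34% of all genes tested passed the adjusted p-value and 8.26% were DEGs. Of 10785 genes whose mean reached 1 CPM, 350 (3.25%) had a higher log2 FC than IRF5. Within replicates 1, 2 and 3, the log2 difference was 1.51, 1.34 and 1.29.

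At 48 h, DMSO libraries had 115, 114 and 110 CPM and Ibr + AS libraries 253, 269 and 263 CPM. This was again a separation without overlap, with a log2 FC of 1.21 (SE 0.09), 2.32-fold, and an adjusted p-value of 6.45e-23. IRF5 was a DEG, as were 7.69% of all genes, and 30.8% passed the adjusted p-value. The log2 difference within replicates 1, 2 and 3 was 1.14, 1.23 and 1.27. The libraries compared in replicate 2 belonged to different sequencing runs, as read from the sample-sheet numbers, and those in replicates 1 and 3 to the same run, as did all pairs at 24 and 72 h.

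At 72 h, DMSO libraries had 130, 112 and 133 CPM and Ibr + AS libraries 172, 194 and 222 CPM. Replicate 1 had the lowest level under Ibr + AS at 72 h and the highest at 24 h. IRF5 remained higher with a log2 FC of 0.65 (SE 0.09), 1.57-fold, and an adjusted p-value of 1.34e-09, but it was not a DEG because the log2 FC lay below 1. The adjusted p-value was passed by 28.6% of all genes, and 7.53% were DEGs. Within replicates 1, 2 and 3, the log2 difference was 0.43, 0.77 and 0.75.

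Single treatment with Ibr raised IRF5 less, and only the earlier times passed the test. At 24 h, Ibr libraries had 155, 150 and 150 CPM, all above the 3 DMSO libraries and all below the 3 Ibr + AS libraries. The log2 FC against DMSO was 0.43 (SE 0.09), 1.35-fold, with an adjusted p-value of 0.000311, in a comparison in which 9.13% of genes passed. At 48 h, with 139, 125 and 146 CPM, the log2 FC was 0.29 (SE 0.09), with an adjusted p-value of 0.0242, and 10.6% of genes passed. That call at 48 h depended on single replicates: the log2 FC was 0.26 (adjusted p = 0.136) without replicate 1 and 0.20 (adjusted p = 0.555) without replicate 3. At 72 h, Ibr libraries of replicates 1 and 2 had 120.8 and 135 CPM and overlapped with DMSO. The log2 FC was 0.05 (95% interval −0.15 to 0.25, adjusted p = 0.855), where 17.6% of all genes passed.

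For AS alone, IRF5 did not pass the test at any time. At 24 h, AS libraries had 151, 126.4 and 134 CPM, each above all DMSO libraries. The log2 FC was 0.28 (95% interval 0.11 to 0.46) with an adjusted p-value of 0.0669, and 2.52% of genes passed. DESeq2 in place of edgeR gave a log2 FC of 0.28 with an adjusted p-value of 0.0211, so this comparison lay near the threshold. At 48 h, AS libraries had 114, 123 and 120 CPM, the log2 FC was 0.09 (95% interval −0.08 to 0.27, adjusted p = 0.778), and 3.66% of genes passed. At 72 h, they had 117, 124 and 135 CPM, the log2 FC was 0.02 (95% interval −0.16 to 0.20, adjusted p = 1), and 13.2% of genes passed. These AS levels at 48 and 72 h overlapped with those of DMSO.

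The single treatments were also compared with each other. IRF5 in Ibr exceeded that in AS by a log2 difference of 0.14 (95% interval −0.04 to 0.32, adjusted p = 0.920) at 24 h and 0.19 (95% interval 0.01 to 0.37, adjusted p = 0.434) at 48 h. At 72 h the difference was 0.03 (95% interval −0.17 to 0.24, adjusted p = 1). None of the 3 passed the test, and few genes did: 0.718% at 24 h, 1.67% at 48 h and 1.95% at 72 h. The intervals leave room for a difference in either direction at 24 and 72 h.

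Against each single treatment, the combination was higher at every time. Compared with Ibr, the log2 difference of IRF5 was 0.95 (SE 0.09, adjusted p = 1.00e-15) at 24 h, 0.93 (SE 0.09, adjusted p = 8.99e-15) at 48 h and 0.60 (SE 0.10, adjusted p = 5.99e-06) at 72 h. Genes past the test made up 19.4%, 20.1% and 7.09% of all genes in these comparisons. Compared with AS, the log2 difference was 1.10 (SE 0.09, adjusted p = 1.13e-19) at 24 h, 1.12 (SE 0.09, adjusted p = 4.61e-20) at 48 h and 0.63 (SE 0.09, adjusted p = 1.27e-08) at 72 h. Here 24.8%, 27.8% and 15.5% of genes passed. IRF5 was a DEG against AS at 24 h, where 4.76% of genes were, and at 48 h, where 5.37% were. Against Ibr it stayed below the log2 FC limit at all times.

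The next comparison asked whether the change with Ibr + AS exceeded the sum of both single changes on the log2 scale. At 24 h, the log2 FC of 1.38 stood against single changes of 0.43 and 0.28, which left an excess of 0.67 (SE 0.13, 95% interval 0.42 to 0.92) with an adjusted p-value of 0.000147. At 48 h, the excess was 0.83 (SE 0.13, 95% interval 0.58 to 1.09) with an adjusted p-value of 4.72e-07. The excess at 72 h was 0.58 (SE 0.14, 95% interval 0.31 to 0.85) with an adjusted p-value of 0.00180. Thus IRF5 was between 1.496- and 1.78-fold above the level that added log2 changes give, and the intervals of the 3 times overlapped. Such an excess or deficit passed the test for 4.09%, 13.6% and 8.02% of genes at 24, 48 and 72 h. In replicates 1, 2 and 3, the excess was 0.59, 0.74 and 0.69 at 24 h and 0.82, 0.95 and 0.73 at 48 h. At 72 h it was 0.62 and 0.40 in replicates 1 and 2, and without replicate 3 the excess was 0.51 with an adjusted p-value of 0.139.

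**Figure D2:**
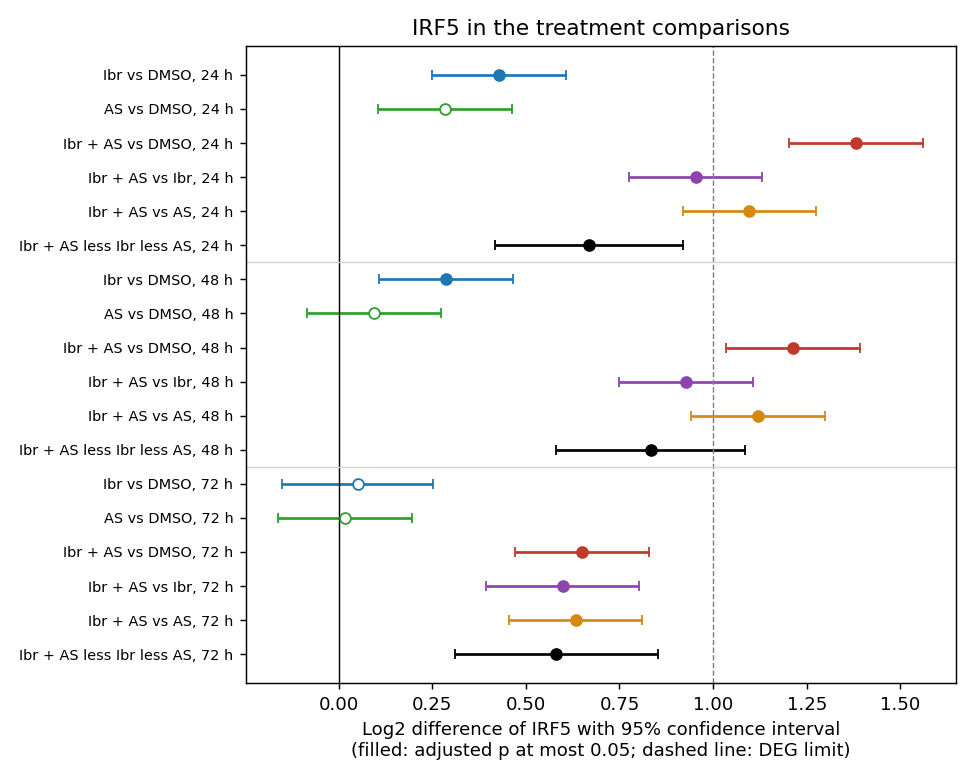
Log2 difference of IRF5 (horizontal axis) with its 95% confidence interval in each comparison of treatments, from edgeR's fit of 35 libraries; filled points have an adjusted p-value of at most 0.05 and the dashed line is the log2 FC limit of a DEG. Each of the 3 Ibr + AS comparisons and the excess over both single changes lie right of 0 at all times, while Ibr alone and AS alone lie nearest to 0 at 72 h.

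The change of IRF5 with Ibr + AS became smaller with time. Between 24 h and 72 h, the log2 FC of Ibr + AS against DMSO fell by 0.73 (SE 0.13, adjusted p = 1.42e-06), in 3 of 3 replicates, and 24.6% of genes passed this test in either direction. The change with Ibr fell by 0.38 (SE 0.14, adjusted p = 0.0472), where 14.4% of genes passed. The latter call rested on single replicates, since the adjusted p-value was 0.457 without replicate 1 and 0.358 without replicate 3. For AS the change was −0.27 (95% interval −0.52 to −0.01, adjusted p = 0.220), and 8.32% of genes passed. In the DMSO libraries alone, fitted on their own with 16468 genes, IRF5 at 48 h differed from 24 h by a log2 FC of 0.01 (95% interval −0.14 to 0.16, adjusted p = 1), and at 72 h by 0.13 (95% interval −0.03 to 0.28, adjusted p = 0.215). Without replicate 2, the latter was 0.21 with an adjusted p-value of 0.0407. Among all genes, 9.92% passed at 48 h and 38% at 72 h.

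Ordered by mean level, IRF5 was lowest in DMSO at 24 h, followed by DMSO at 48 h, AS at 48 h, DMSO at 72 h, AS at 72 h, Ibr at 72 h, Ibr at 48 h, AS at 24 h and Ibr at 24 h. The ranges of any neighbours in this part of the order overlapped. Above them came Ibr + AS at 72 h, at 48 h and at 24 h, and none of these ranges overlapped with its neighbour. The step from 48 h to 24 h of Ibr + AS was nevertheless small, with a log2 difference of 0.17 and an adjusted p-value of 0.628.

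Within the interferon regulatory factor family, IRF1 was the only other member whose identifier was paired; the remaining 7 were not analysed here. IRF1 is a transcription factor induced by interferons that acts on antigen presentation and antiviral genes. At 24 h, its level in DMSO was 34.6, 36.3 and 37.3 CPM and in Ibr + AS 122, 101.1 and 102 CPM, again without overlap. Its log2 FC with Ibr + AS was 1.59 at 24 h (adjusted p = 2.26e-27), 1.27 at 48 h (adjusted p = 4.31e-21) and 1.02 at 72 h (adjusted p = 1.15e-15), where that of IRF5 was 1.38, 1.21 and 0.65. IRF1 passed the test, where IRF5 did not, for AS at 24 h (log2 FC 0.39, adjusted p = 0.0198), for Ibr at 72 h (0.49, adjusted p = 0.000535) and for AS at 72 h (0.53, adjusted p = 4.24e-05), though a difference between the genes was not tested. The excess over both single changes was 0.46 (adjusted p = 0.0460) at 24 h and 0.68 (adjusted p = 0.000211) at 48 h for IRF1, and at 72 h it was 0.00 (adjusted p = 1).

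The genes around IRF5 on the chromosome, taken from the RefSeq order of another dog assembly, were read next. Of 4 genes on either side, 4 could be paired: TSPAN33 and TNPO3 on one side and KCP and ATP6V1F on the other. Under Ibr + AS, 1 rose and 2 fell at 24 h, 1 rose and 1 fell at 48 h, and 2 rose and 1 fell at 72 h, with medians of −0.12, −0.05 and 0.07. Among all genes, the share that rose was 17.1% at 24 h, 15.4% at 48 h and 14.1% at 72 h, and the share that fell was 16.9%, 15.3% and 14.5%. KCP, which encodes a secreted modulator of BMP signalling, lies next to IRF5 and moved alongside it. In DMSO at 24 h, KCP had 45.2, 35.5 and 34.7 CPM, and in Ibr + AS 161, 115 and 129 CPM. Its log2 FC with Ibr + AS was 1.81 (adjusted p = 6.11e-11), 1.53 (adjusted p = 1.83e-09) and 0.61 (adjusted p = 0.00142) at 24, 48 and 72 h. KCP also rose in DMSO, by a log2 FC of 0.72 from 24 to 72 h (adjusted p = 2.81e-15), where that of IRF5 was 0.13 (adjusted p = 0.215). TNPO3, a nuclear import receptor, had a log2 FC of −0.26 (adjusted p = 0.0165) at 24 h, −0.13 (adjusted p = 0.312) at 48 h and 0.29 (adjusted p = 0.00853) at 72 h. From 24 to 72 h it went from 95.8 ± 3.74 to 72.6 ± 2.32 CPM in DMSO and from 80.2 ± 2.39 to 88.8 ± 4.86 CPM in Ibr + AS. Of the 4 neighbours, 3 rose and 1 fell in DMSO over this time, where 38% of all genes passed in either direction. ATP6V1F, a subunit of the vacuolar proton pump, stayed between −0.14 and 0.03. TSPAN33, a tetraspanin, was almost silent with 0 to 32 reads per library and was lower under Ibr + AS at all times. Which strand the authors counted is not stated, so reads of overlapping transcripts of IRF5 and its neighbours cannot be told apart.

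**Figure D3:**
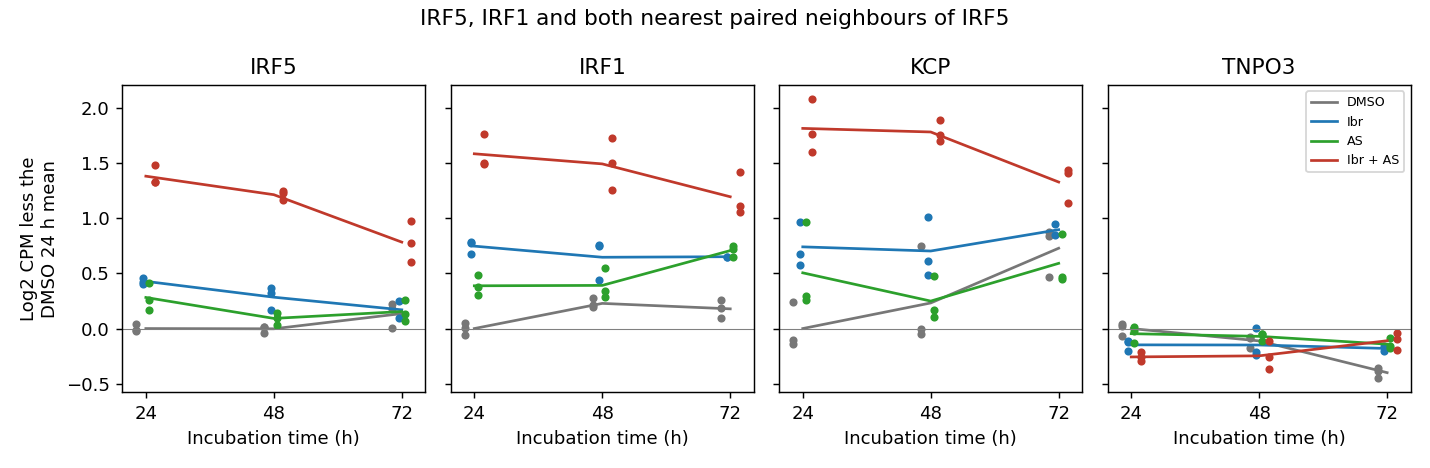
Log2 CPM of IRF5, IRF1 and 2 neighbours of IRF5 (KCP and TNPO3) less the mean of the DMSO libraries at 24 h, against incubation time; dots are the 35 fitted libraries and lines join the means of each treatment. In IRF5, IRF1 and KCP, the Ibr + AS libraries lie above DMSO at 24, 48 and 72 h, whereas in TNPO3 they lie below DMSO at 24 h.

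In the pathway that leads from Toll-like receptors to IRF5, 6 of 21 genes could be paired. Under Ibr + AS, 0 of these 6 rose and 1 fell at 24 h, the same numbers held at 48 h, and 2 rose and 1 fell at 72 h. Over all genes, 17.1%, 15.4% and 14.1% rose and 16.9%, 15.3% and 14.5% fell at these times. TNFAIP3, which encodes the inhibitory ubiquitin-editing enzyme A20, fell by a log2 FC of 0.41, 0.44 and 0.42 at 24, 48 and 72 h, with adjusted p-values of 0.00150, 0.000887 and 0.00120. IRAK3, an inhibitory member of the IRAK family, had a log2 FC of 0.64 (adjusted p = 0.0678), 0.58 (adjusted p = 0.124) and 0.88 (adjusted p = 0.0181). TAB1, an activator of the kinase MAP3K7, passed only at 72 h with a log2 FC of 0.34 (adjusted p = 0.00281). In DMSO itself, 2 of the 6 genes rose and 4 fell from 24 to 72 h, where 38% of all genes passed in either direction. The mean level of TAB1 in DMSO went from 70.7 CPM at 24 h to 59.8 CPM at 72 h. Under Ibr + AS, TAB1 had 70.4 and 75.4 CPM at these times. Mean levels of IRAK3 were 8.78 and 6.98 CPM in DMSO and 13.4 and 12.9 CPM in Ibr + AS. TAB2 and TBK1 did not pass at any time, and neither did TIFAB, which had at most 6 reads in a library. Median log2 FCs of the list were −0.17, 0.02 and 0.01, against 0.03, 0.01 and 0.00 over all genes tested. TLR7, TLR8, TLR9, MYD88, IRAK1, IRAK4 and TRAF6 were not analysed here.

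Of 9 cytokine genes known as targets of IRF5, TNF and IL23A could be paired, and neither rose with Ibr + AS. TNF, an inflammatory cytokine, had 12.5, 14.5 and 17.9 CPM in DMSO and 19.8, 13.2 and 19.7 CPM in Ibr + AS at 24 h, so the groups overlapped (log2 FC 0.24, adjusted p = 0.603). Its log2 FC was 0.50 (adjusted p = 0.214) at 48 h and −1.04 (adjusted p = 0.00720) at 72 h. IL23A, a subunit of interleukin 23, had a log2 FC of 0.53 (adjusted p = 0.203), −0.34 (adjusted p = 0.441) and −1.88 (adjusted p = 2.36e-10), at a mean of 1.94 CPM. Both genes rose in DMSO from 24 to 72 h, TNF by a log2 FC of 1.15 (adjusted p = 6.89e-28) and IL23A by 2.36 (adjusted p = 2.88e-29). At 72 h, DMSO libraries had 33.95, 33.6 and 30.6 CPM of TNF and Ibr + AS libraries 14.9, 14.4 and 18.5 CPM, close to the levels of both treatments at 24 h. The median log2 FC of the pair with Ibr + AS was 0.39, 0.08 and −1.46 at 24, 48 and 72 h.

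Genes of interferon signalling and response moved in both directions. With 9 of 18 paired, 2 rose and 1 fell under Ibr + AS at 24 h. At 48 h, 2 rose and 1 fell, and at 72 h, 3 rose and 1 fell. Over all genes, 17.1%, 15.4% and 14.1% rose and 16.9%, 15.3% and 14.5% fell at 24, 48 and 72 h. APOL6, an interferon-inducible apolipoprotein gene, rose most, from 13.5, 16.1 and 14.7 CPM in DMSO to 43.6, 43.2 and 39.9 CPM at 24 h. Its log2 FC was 1.51 (adjusted p = 2.62e-21), 1.09 (adjusted p = 3.62e-13) and 0.81 (adjusted p = 2.32e-08) at 24, 48 and 72 h, and like that of IRF5 it was smallest at 72 h. STAT2, a transcription factor of type I interferon signalling, rose at 24 h by a log2 FC of 0.33 (adjusted p = 0.00386), and DDX58, the RNA sensor RIG-I, at 48 h by 0.44 (adjusted p = 0.0456). IFNGR1, a chain of the interferon gamma receptor, fell by 0.77 (adjusted p = 3.98e-12) at 24 h and by 0.23 (adjusted p = 0.0409) at 48 h. At 72 h, TRIM56, a ubiquitin ligase of antiviral defence, was higher than in DMSO of that time by 0.56 (adjusted p = 0.0223). NCOA7, a nuclear receptor coactivator with an interferon-induced isoform, was higher by 0.28 (adjusted p = 0.0216). From 24 to 72 h, TRIM56 went from 25.7 ± 3.46 to 17.6 ± 3.89 CPM in DMSO and from 25.7 ± 8.88 to 26.1 ± 3.12 CPM in Ibr + AS. NCOA7 went from 65.8 ± 2.02 to 58.9 ± 5.36 CPM in DMSO and from 64.1 ± 6.78 to 71.4 ± 6.68 CPM in Ibr + AS. ETV7 was lower than in DMSO at 72 h, at no more than 12 reads per library. The medians of the list were 0.01, 0.14 and 0.02, against 0.03, 0.01 and 0.00 over all genes tested. They include ETV7, LY6E and IFNG, which were almost silent. IFNG had at most 1 read in a library.

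Antigen presentation genes were higher with Ibr + AS at 24 and 48 h, and at 72 h part of them were lower than in DMSO of that time. Of the 7 of 10 that could be paired, 6 rose at 24 h, 5 rose at 48 h, and at 72 h 1 rose and 4 fell. Their medians were 0.61, 0.43 and −0.32. Over all genes, 17.1% rose at 24 h and 15.4% at 48 h, and at 72 h 14.1% rose and 14.5% fell. In DMSO itself, 5 of the 7 rose and 1 fell from 24 to 72 h, with a median log2 FC of 0.53. In that comparison, 38% of all genes passed in either direction. TAP1, the peptide transporter of the class I pathway, had a log2 FC of 0.70 (adjusted p = 7.62e-11), 0.53 (adjusted p = 4.92e-07) and 0.05 (adjusted p = 0.746) at 24, 48 and 72 h. DLA88, a class I gene, had 0.78 (adjusted p = 3.29e-10), 0.50 (adjusted p = 3.04e-05) and −0.18 (adjusted p = 0.200). The class II genes DLA-DOA and DLA-DRA rose by 0.93 (adjusted p = 8.77e-12) and 0.61 (adjusted p = 2.69e-06) at 24 h and were lower by −0.32 (adjusted p = 0.0150) and −0.76 (adjusted p = 2.12e-08) at 72 h. DLA-DRA had 2668 ± 35.7 CPM in DMSO at 24 h, 4447 ± 291 CPM in DMSO at 72 h and 2641 ± 555 CPM in Ibr + AS at 72 h (n = 3). For DLA-DOA the levels were 46.6 ± 2.65, 72.2 ± 6.84 and 58.0 ± 12.1 CPM. Under Ibr + AS at 72 h, neither DLA-DRA nor DLA-DOA was below DMSO at 24 h beyond the spread of replicates. DLA-DQA1, with 496 to 711 CPM in Ibr + AS at 72 h, overlapped with its 664 to 701 CPM in DMSO at 24 h. DLA-DMA did not follow this pattern. Its 313 to 432 CPM in Ibr + AS at 72 h lay below DMSO at 24 h (484 to 505 CPM) and at 72 h (514 to 571 CPM). At 72 h, the log2 FC of IRF5 was 0.65. TAPBP, which loads peptides on class I molecules, had its highest log2 FC at 72 h, 0.67 (adjusted p = 5.87e-10). Its level at 24, 48 and 72 h was 277 ± 27.6, 310 ± 8.17 and 302 ± 23.6 CPM in Ibr + AS. In DMSO it was 217 ± 14.3, 231 ± 4.41 and 190 ± 7.44 CPM, lowest at 72 h. Genes of the DLA family are near-identical in part, so reads may be split between copies.

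**Figure D4:**
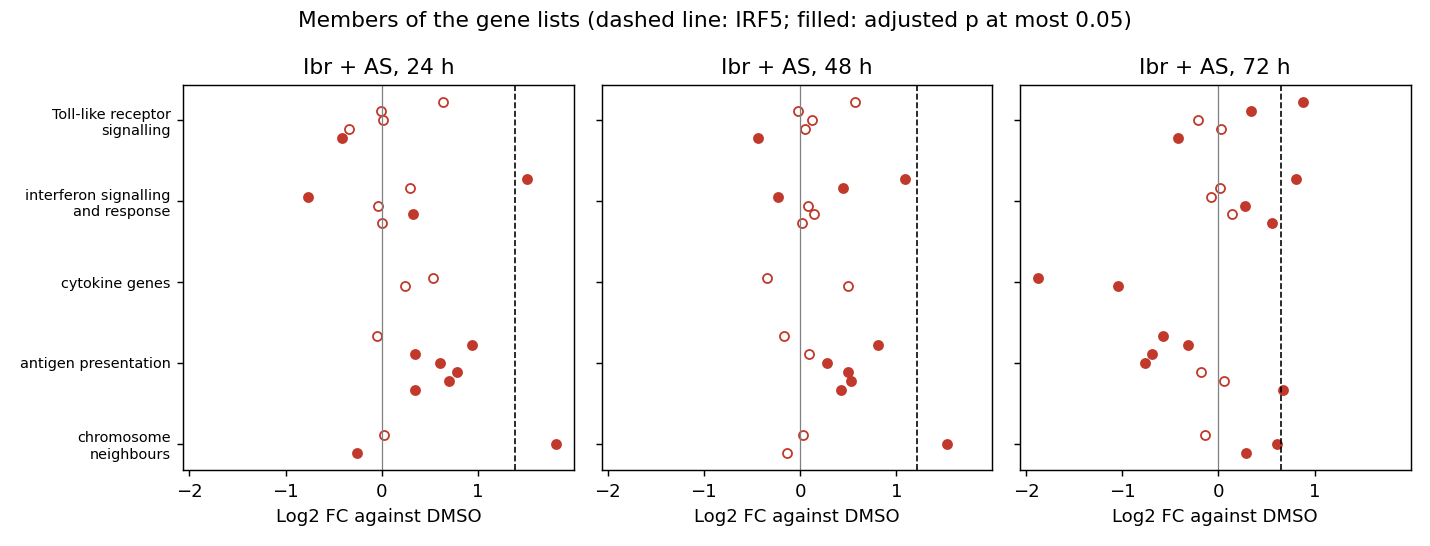
Log2 FC of Ibr + AS against DMSO (horizontal axis) for the paired members of 5 gene lists whose mean reached 1 CPM, at 24, 48 and 72 h; filled points have an adjusted p-value of at most 0.05 and the dashed line marks IRF5. At 24 h, APOL6 and KCP lie right of IRF5, and at 72 h both cytokine genes and 4 antigen presentation genes lie left of 0 as filled points.

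Markers of myeloid cells, which also express IRF5, were checked, and 3 of 5 could be paired. The summed level of TREM2, LYZ and CSF2RB was 76.3 to 124 CPM in DMSO, 104 to 175 CPM in Ibr, 93.5 to 110.3 CPM in AS and 147 to 325 CPM in Ibr + AS. TREM2, a receptor of some macrophage states, had 0 or 1 read in each library. LYZ, the gene of lysozyme, made up most of the sum. Its log2 FC with Ibr + AS was 1.68 (adjusted p = 1.66e-13), 1.27 (adjusted p = 1.90e-10) and 0.68 (adjusted p = 3.30e-05), smallest at 72 h like that of IRF5. Pearson's r of log2 CPM between LYZ and IRF5 was 0.88 over 35 libraries. Within groups, after removal of group means, it was 0.04. For CSF2RB, these values were 0.65 and 0.34. CSF2RB, a cytokine receptor subunit, had a log2 FC of 0.49, 0.55 and 0.59. The part of these transcripts in the IRF5 result was not tested. CD14 and CSF1R were not analysed here. Of the B-cell markers, TNFRSF13C rose under Ibr + AS by a log2 FC of 1.28, 1.27 and 1.34, and TCF4 stayed within 0.12 of DMSO. DLA-DRA, described above, was higher than in DMSO at 24 h and lower at 72 h. The summed level of the 3 markers, most of it DLA-DRA, ranged from 2808 to 4875 CPM in DMSO and from 2330 to 4648 CPM in Ibr + AS. Pearson's r with IRF5 over libraries was 0.90 for TNFRSF13C, 0.35 for DLA-DRA and 0.06 for TCF4. Within groups it was 0.53, 0.02 and 0.05.

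Genes whose pattern was most like that of IRF5 were sought among 878 paired genes whose mean reached 1 CPM, by Pearson's r of log2 CPM over 35 libraries. This is a description, since all genes share the libraries and the treatment groups. The median r was −0.11, and 16 genes had r above 0.9. Among the 5 highest were DGKA (r = 0.96), a kinase of the lipid messenger diacylglycerol, MTSS1 (0.95), an actin-binding scaffold, TMEM71 (0.94), a membrane protein, and FGD2 (0.94), an exchange factor of the GTPase CDC42. IRF1 was the 7th with r = 0.93, TAP1 the 11th with 0.92, APOL6 the 13th with 0.91 and KCP the 14th with 0.90. Within groups, after removal of group means, r with DGKA, MTSS1, TMEM71 and FGD2 was lower, between 0.37 for TMEM71 and 0.70 for FGD2. These 4 genes rose with Ibr + AS at all times, with log2 FCs at 24 h of 1.10 for DGKA, 3.87 for MTSS1, 3.53 for TMEM71 and 1.87 for FGD2.

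The 3 genes most opposite to IRF5 were CDC23 (r = −0.96), a subunit of the anaphase-promoting complex, SLC30A9 (−0.94), a zinc transporter, and CDK2 (−0.94), a kinase of the cell cycle. CDC23 fell by a log2 FC of 0.93, 0.71 and 0.30 after 24, 48 and 72 h of Ibr + AS, and like IRF5 it had its smallest change at 72 h. CDK2 fell by 0.87, 0.93 and 0.66, from 60.6 ± 2.6 CPM in DMSO to 33.1 ± 1.2 CPM in Ibr + AS at 24 h (n = 3). For SLC30A9 the log2 FC was −1.04 at 24 h, −0.87 at 48 h and −0.21 at 72 h, the last with an adjusted p-value of 0.0851.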

How the data were processed

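RNA of CLBL-1 cells was sequenced in 36 libraries. The authors enriched poly-A RNA, sequenced single-end reads, mapped them with STAR 2.7.5a to CanFam3.1 and deposited raw read counts per Ensembl gene, without normalization. The submitters' processing notes also name SAMtools. Which strand was counted is not given in the sources used here. For replicate 3 of DMSO at 24 h the sample title and the passage field differ in the passage, and the field was followed.

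The fit was made with edgeR 4.0.16 (with limma 3.58.1) in R 4.3.3, on genes with 2 reads or more over the fitted libraries, with TMM factors, a robust quasi-likelihood fit, and terms for passage and group. It held 35 libraries, without the Ibr 72 h library that the study discarded. DMSO times were fitted on 9 libraries. P-values were adjusted over all genes tested, the SE is the log2 FC divided by the root of F, and a prior count of 1 was added for log2 CPM. Gene lengths were not used, so levels are not compared between genes.

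Counts of 2 libraries of a group varied beyond sampling noise (chi-square per degree of freedom of 1.87 to 26.9 over 36 pairs). Once group means were subtracted, 187 pairs of libraries from the same passage correlated with a median r of 0.09, and 374 pairs from different passages with −0.03. Passage stayed in the model, as in the study. From the sample-sheet numbers in the table header, 2 sequencing runs were inferred.

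IRF5, the gene lists and the alternatives were chosen with earlier results of these data known. The text names IRF5, the list members with a paired identifier, the 5 genes with the highest r, of which 1 is not reported here, and the 3 with the lowest. Alternatives were DESeq2 1.42.0, other size factors (RLE), filterByExpr, all 36 libraries, a model without passage, fits of the compared groups only and each replicate left out. A model that also held the sequencing run was chosen after seeing the data. Scripts were tested on simulated data.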

Additional observations from a re-analysis of the deposited data

Results flagged for a closer look

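The change of IRF5 with treatment differed between incubation times by a test of the difference itself. For Ibr + AS, the log2 FC against DMSO was lower at 72 h than at 24 h, with a difference of −0.73 (SE 0.13, adjusted p = 1.42e-06, edgeR). Within replicates 1, 2 and 3 the difference was −1.08, −0.57 and −0.54, so it was seen in 3 of 3 replicates and was largest in replicate 1. Over the alternatives it lay between −0.81 and −0.59. For Ibr, the difference was −0.38 (SE 0.14, adjusted p = 0.0472), with −0.56 in replicate 1 and −0.18 in replicate 2, the only replicates fitted at 72 h. By the sequencing runs inferred from sample-sheet numbers, the 24 h and 72 h libraries of replicate 2 belonged to different runs, and those of replicate 1 to the same run.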

How the results depend on the processing

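IRF5 in Ibr + AS against DMSO kept its direction and an adjusted p-value of at most 0.05 in all 10 alternatives, with log2 FCs of 1.34 to 1.41 at 24 h, 1.18 to 1.24 at 48 h (a DEG in all 10 at both times) and 0.59 to 0.75 at 72 h (a DEG in none). Leaving out the passage term (the replicate block) changed no call, and gave log2 FCs of 1.38, 1.21 and 0.65 for Ibr + AS. AS at 24 h passed the test with DESeq2 (log2 FC 0.28, adjusted p = 0.0211), filterByExpr (0.28, adjusted p = 0.0404) and the compared groups only (0.28, adjusted p = 0.000604), and its adjusted p-value reached 0.530 in other alternatives. Differences near 0 turned their sign: AS at 72 h was −0.0030 with DESeq2 and −0.0027 with RLE factors, Ibr at 72 h −0.051 and Ibr against AS at 72 h −0.052 with all 36 libraries, and DMSO at 48 h against 24 h −0.0015 in one fit of 35 libraries.

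With each replicate left out in turn, values ranged from −0.034 to 0.073 for AS at 72 h (below 0 without replicate 2, −0.034, and without replicate 3, −0.010), −0.087 to 0.16 for Ibr at 72 h and −0.053 to 0.11 for Ibr against AS at 72 h (both below 0 without replicate 2). They ranged from 0.20 to 0.35 for Ibr at 48 h, −0.52 to −0.25 for the change of the Ibr effect with time, 0.51 to 0.72 for the excess at 72 h, −0.012 to 0.039 for DMSO at 48 h (−0.012 without replicate 1 and −0.0015 without replicate 2) and 0.089 to 0.21 for DMSO at 72 h. The Ibr call at 48 h and the Ibr effect change were lost without replicate 1 or 3 (0.26 and 0.20; −0.25 and −0.32), and the excess at 72 h without replicate 3 (0.51). DMSO at 72 h passed the test without replicate 2 (0.21, adjusted p = 0.0407) and with the inferred sequencing run as a term (0.20, adjusted p = 0.0484). Without replicate 1 or 2, Ibr at 72 h rests on 1 library, which is assumed to vary like the other groups. The cause of these changes was not tested.

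With filterByExpr, 1 gene of the Toll-like receptor list rose and 2 fell at 24 h and 1 rose at 48 h under Ibr + AS, and 0 interferon genes fell at 72 h. Of the 8 genes named for likeness, 3 were also named with Spearman's rho and 4 with Pearson's r over the 12 group means. The 3 passages of 1 line limit all comparisons, and the identifiers were paired through shortened copies of the study's tables, so many genes of the lists were not read.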

Other observations

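The single treatments moved some listed genes at 72 h, when IRF5 itself passed the test in neither. TNF was lower by a log2 FC of −1.48 with Ibr (adjusted p = 0.00306, edgeR) and −1.04 with AS (adjusted p = 0.0160), and IL23A by −2.18 (adjusted p = 3.83e-09) and −2.58 (adjusted p = 7.73e-14). Both had risen in DMSO from 24 to 72 h: IL23A stood at 1.25 ± 0.314 CPM in DMSO at 24 h and 6.83 ± 1.78 CPM at 72 h (n = 3), against 1.12 ± 0.0676 CPM in AS at 72 h. Of 7 antigen presentation genes, 1 was higher and 5 were lower with Ibr at 72 h, where 17.6% of all genes passed the test, and 1 was higher and 3 were lower with AS, where 13.2% passed. In DMSO, 5 of these 7 genes rose from 24 to 72 h, where 38% of all genes passed in either direction. IRF1 was higher with both single treatments at 72 h.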
